A study of Homo sapiens with 18 samples.

Results

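The 6 libraries described here came from N/TERT2G keratinocytes that expressed TEADi for 48 or 24 h, with 3 libraries at each time, and they were taken by virus and time from the 18 libraries of the series. N/TERT2G is an immortalized human keratinocyte line, grown here in culture. TEADi is a dominant-negative protein, in which the stretches of VGLL4, YAP1 and TAZ that bind TEAD are joined to a nuclear green fluorescent protein, and it was delivered by an adenovirus (Ad-TEADi) at a multiplicity of infection of 25. The other 12 libraries are Ad-TEADi cells at 12 h and cells that received an adenovirus for green fluorescent protein alone (Ad-GFP) at 12, 24 and 48 h, again with 3 libraries each. Every culture received a virus, and none without virus was compared. The question is what changed in inhibited cells during the second day, and how much of that also changed between the same times with the control virus.

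TEAD proteins bind DNA and depend on the coactivators YAP1 and TAZ, which the Hippo kinases hold back in the cytoplasm, to switch on genes for growth and for attachment to the matrix. In the epidermis this activity marks the dividing basal layer. Cells that leave that layer stop cycling, strengthen their desmosomes and then make involucrin, small proline-rich proteins and transglutaminase, which are crosslinked into the cornified envelope.

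Levels are the deposited TMM normalized values, in CPM (reads scaled to a library total of 1000000), given as 48 h libraries against 24 h libraries in replicate order. A change is log2 of the 48 h value over the 24 h value after a pseudocount of 1, ± its standard error from limma, so for genes with low values it is smaller than the ratio of the levels. Of 15896 genes in the table, 12549 lay on chromosomes 1 to 22, X or MT and reached a value of 1 in at least 3 of the 6 libraries, and p-values were adjusted over these. A gene under 1 in every library of 1 time was tested only if every library of the other time reached 1. The filter thus set the direction of such genes. Among genes named below, those that entered through their 48 h values include CNFN, SBSN, DSG1, KRTDAP, SULT2B1, IL36RN and DCN, and VGLL1 entered through its 24 h values. Rises and falls are changes of at least 1.5-fold with an adjusted p under 0.05. Genes were flagged for uneven values where libraries of 1 group lay over 16-fold apart or where TMM and TPM values disagreed. The study used triplicate samples and plated the wells of a cell experiment together, and whether each library came from its own well is not stated, so p-values measure the spread between these libraries. A lower value in bulk RNA can mean fewer cells of a kind or less RNA per cell, and these cannot be told apart here.

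Between 48 and 24 h of TEADi, 2001 of 12549 genes (15.9%) passed, of which 1070 rose (8.53%) and 931 fell (7.42%). Most cornified envelope and antimicrobial genes rose, nearly all replication and mitosis genes fell, and 9 of 29 TEAD targets, 13 of 28 ribosome assembly genes and 13 of 26 endoplasmic reticulum stress genes fell. The median change was 0.84 among the rises, −0.80 among the falls and −0.01 over all tested genes. The 48 h and 24 h libraries did not overlap in 1066 of the 1070 rises and 930 of the 931 falls, where 30.1% of all tested genes lay apart with 48 h higher and 33.3% with 48 h lower. The balance depended on the scale of the values, with 195 rises and 359 falls on the deposited TPM values and 589 and 1031 on TPM values rescaled to a total of 1000000.

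Promoter stretches of 8 genes on which the account turns are shown first, since each holds the short motif searched for in its gene group. They are RefSeq sequences of GRCh38.p14, 180 bases ending just before the annotated start, on the gene's strand and read 5′ to 3′, with the motif of that gene group alone in capitals on either strand. For the TEAD targets CTGF (chr6:131951373-131951552, minus strand) and THBS1 (chr15:39580899-39581078, plus strand) the capitals mark the TEAD motif GGAATG, which lay 169, 104 and 95 bases before the start of CTGF and 46 bases before that of THBS1.
CTGF: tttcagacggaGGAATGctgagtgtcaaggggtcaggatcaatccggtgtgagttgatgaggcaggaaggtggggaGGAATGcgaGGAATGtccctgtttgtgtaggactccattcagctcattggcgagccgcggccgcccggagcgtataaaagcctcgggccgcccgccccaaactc
THBS1: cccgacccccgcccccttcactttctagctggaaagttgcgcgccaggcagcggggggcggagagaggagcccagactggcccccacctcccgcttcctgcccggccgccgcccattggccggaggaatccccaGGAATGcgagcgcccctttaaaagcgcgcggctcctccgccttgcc
For the replication gene MCM6 (chr2:135876444-135876623, minus strand) and for E2F1 (chr20:33686386-33686565, minus strand) they mark an E2F motif, any of TTTCGCGC, TTTGGCGC, TTTCCCGC or TTTGCCGC, and in MCM6 each run of capitals holds 2 overlapping matches, 1 on each strand.
MCM6: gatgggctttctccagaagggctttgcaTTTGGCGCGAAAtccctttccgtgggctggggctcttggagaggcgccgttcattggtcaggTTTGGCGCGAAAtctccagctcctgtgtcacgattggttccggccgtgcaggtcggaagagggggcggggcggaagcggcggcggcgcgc
E2F1: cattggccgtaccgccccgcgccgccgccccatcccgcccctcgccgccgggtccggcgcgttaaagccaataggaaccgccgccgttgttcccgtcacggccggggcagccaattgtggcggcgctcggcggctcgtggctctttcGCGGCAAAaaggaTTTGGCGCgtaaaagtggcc
For the mitosis genes CDC20 (chr1:43358801-43358980, plus strand) and PLK1 (chr16:23678709-23678888, plus strand) they mark the CHR motif, TTTGAA or TTCGAA, and the CCAAT box.
CDC20: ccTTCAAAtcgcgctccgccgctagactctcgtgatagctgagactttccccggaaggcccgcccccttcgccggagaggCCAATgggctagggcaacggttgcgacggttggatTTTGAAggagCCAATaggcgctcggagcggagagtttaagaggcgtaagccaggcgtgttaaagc
PLK1: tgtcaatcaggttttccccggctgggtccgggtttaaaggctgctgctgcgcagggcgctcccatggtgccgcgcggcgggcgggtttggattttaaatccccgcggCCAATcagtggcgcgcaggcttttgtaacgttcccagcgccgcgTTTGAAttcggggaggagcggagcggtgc
For the cornified envelope genes SPRR1A (chr1:152983901-152984080, plus strand) and IVL (chr1:152908366-152908545, plus strand) they mark the AP-1 motif TGANTCA.
SPRR1A: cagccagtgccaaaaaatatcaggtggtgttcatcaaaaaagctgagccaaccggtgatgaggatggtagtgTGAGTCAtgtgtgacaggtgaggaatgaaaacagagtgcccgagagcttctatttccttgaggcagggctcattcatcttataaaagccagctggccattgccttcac
IVL: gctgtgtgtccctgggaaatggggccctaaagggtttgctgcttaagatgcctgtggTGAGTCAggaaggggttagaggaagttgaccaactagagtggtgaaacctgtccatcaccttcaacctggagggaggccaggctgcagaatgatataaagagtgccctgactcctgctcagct

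Estimated reads summed to 18.2, 20.9 and 16.6 M in the 48 h libraries, against 18.8, 18.4 and 26.7 M in the 24 h libraries, within 14.2 to 26.7 M over all 18. Mitochondrial transcripts took 3.08% to 4.56% of the values. All 12 keratinocyte markers reached a value of 1 in every library, and their summed value was 60741 to 64059 CPM at 48 h, against 40577 to 42109 CPM at 24 h. The fibroblast markers summed to 948 to 977 CPM at 48 h, against 1099 to 1159 CPM at 24 h. The melanocyte markers, with 2 of 10 in the table, were at 0.890 to 1.49 CPM, against 2.17 to 2.6 CPM. The 5 of 13 immune and endothelial markers in the table summed to 51.9 to 61.2 CPM, against 27.1 to 31.0 CPM, and the part of any of these cells in the results was not tested. In the plot of principal components the 48 h Ad-TEADi libraries lay together at 41.4 to 43.4 on the first axis, against −15.5, −10.2 and −8.59 for the 24 h libraries.

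**Figure D1:**
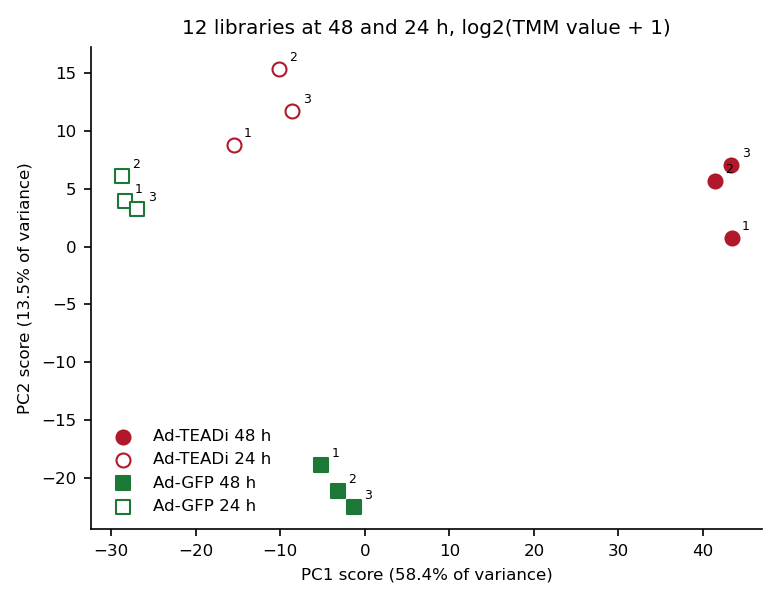
First (58.4% of the variance) and second (13.5%) principal components of log2(TMM value + 1) over the tested genes in the 12 Ad-TEADi and Ad-GFP libraries at 48 and 24 h, each point 1 library. On the first axis the 48 h Ad-TEADi libraries lay at 41.4 to 43.4, far from all others, while the 48 h Ad-GFP libraries lay between −5.21 and −1.34 and 24 h Ad-TEADi replicate 1 lay nearest its Ad-GFP counterparts.

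The 24 h Ad-TEADi libraries were not equally far from the 48 h state. Replicate 1 was the 24 h library farthest from the 48 h libraries in 606 of the 1070 rises (56.6%), where it was the lowest of the 3 in 33.7% of all tested genes. It was the farthest in 643 of the 931 falls (69.1%), where it was the highest in 36% of all tested genes. Without this library 1030 genes rose and 873 fell, the cornified envelope list had 16 rises of 18, S phase had 43 falls of 50, G2 and M phase had 53 of 56 and the TEAD target list had 9 of 29.

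Some known targets of YAP1, TAZ and TEAD fell. Of 29 tested members of the target list, 9 fell and 2 rose, and the list's median change was −0.24 (−0.15 without 24 h replicate 1), beside −0.01 over all tested genes. THBS1, a secreted matrix glycoprotein, measured 1106, 1146 and 991 CPM at 48 h, against 3935, 2825 and 2842 CPM at 24 h, and fell by 1.55 ± 0.10 (adjusted p = 1.9e-08). The 48 h libraries lay far under the lowest 24 h library. CTGF, a matrix-associated growth factor named here because its promoter is shown, had 7.47, 6.98 and 6.73 CPM, against 23.9, 14.3 and 13.6 CPM, and fell by 1.14 ± 0.15 (adjusted p = 2.1e-05), with 24 h replicate 1 well above the other two. TGFB2, a TGF-beta ligand, fell to 11.6, 13.1 and 10.3 CPM, against 25.6, 25.1 and 23.7 CPM (−1.03 ± 0.08, adjusted p = 1.9e-13), although 22.7% of its annotated exon bases are shared with another transcript on the same strand.

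AXL, a receptor tyrosine kinase, FST, which binds activins, and DKK1, a secreted Wnt antagonist, fell by 0.79, 0.78 and 0.86, and their 48 h and 24 h libraries did not overlap. AMOTL2, EDN1 and DLC1 were the other 3 falls (−0.71, −0.76 and −0.92). IGFBP3, an IGF-binding protein, was among the rises (0.87). CYR61, named after its values were seen, changed by −0.28 ± 0.08, inside the 1.5-fold limit, with 161, 163 and 149 CPM, against 229, 170 and 180 CPM. Among promoters of 250 bases, GGAATG or its reverse complement was found in 6 of 20 matched targets (30%) and in 4 of 11 matched cornified envelope genes (36.4%), against 11.9% of all 27305 promoters, and its share was alike in rises (10.1%), falls (10.3%) and all tested genes (9.3%).

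The factors themselves moved both ways. Of 9 tested TEAD factors and cofactors, VGLL3 rose, TEAD4 and VGLL1 fell, and the median change was 0.10. VGLL3, a vestigial-like cofactor, had 25.8, 29.3 and 31.8 CPM at 48 h, against 14.1, 16.8 and 14.8 CPM at 24 h (0.89 ± 0.08, adjusted p = 1.2e-11). TEAD4 had 11.1, 9.59 and 10.4 CPM, against 17, 15.9 and 16.2 CPM (−0.61 ± 0.08), and was no longer called without 48 h replicate 2 (−0.56) or with the libraries scaled to the same median (−0.58). VGLL1 had 0.773, 0.796 and 0.890 CPM, against 2.55, 1.87 and 1.39 CPM (−0.67 ± 0.14), and was not called without 24 h replicate 1 (−0.52). Neither fall was called on rescaled TPM values (−0.48 and −0.45).

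TEAD1 (−0.31), TEAD2 (0.52) and TEAD3 (0.39) stayed within 1.5-fold, although TEAD2 was called without 24 h replicate 2 (0.59) or without 48 h replicate 3 (0.61). YAP1 changed by −0.04 ± 0.05 and WWTR1, which encodes TAZ, by 0.10 ± 0.06. VGLL4 changed by 0.51 ± 0.06, with 69.8, 63.9 and 64.4 CPM at 48 h, against 44.5, 45.6 and 47.6 CPM at 24 h. Whether any VGLL4, YAP1 or WWTR1 reads came from the TEADi construct was not tested, and 22.2% of VGLL4 exon bases are shared with ATG7 on the other strand. None of 19 Hippo kinases and adaptors passed by limma, with a median of −0.15. At an unadjusted p under 0.05, 10 were lower and 3 higher, against 33.3% and 29.8% of all tested genes, and LATS1 (−0.32), NF2 (−0.51), WWC1 (−0.56), WWC2 (−0.35) and TAOK3 (−0.30) had adjusted p under 0.05 without reaching 1.5-fold. WWC1 passed when any of 24 h replicate 2, 24 h replicate 3 or 48 h replicate 1 was left out (−0.60, −0.59 and −0.59).

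**Figure D2:**
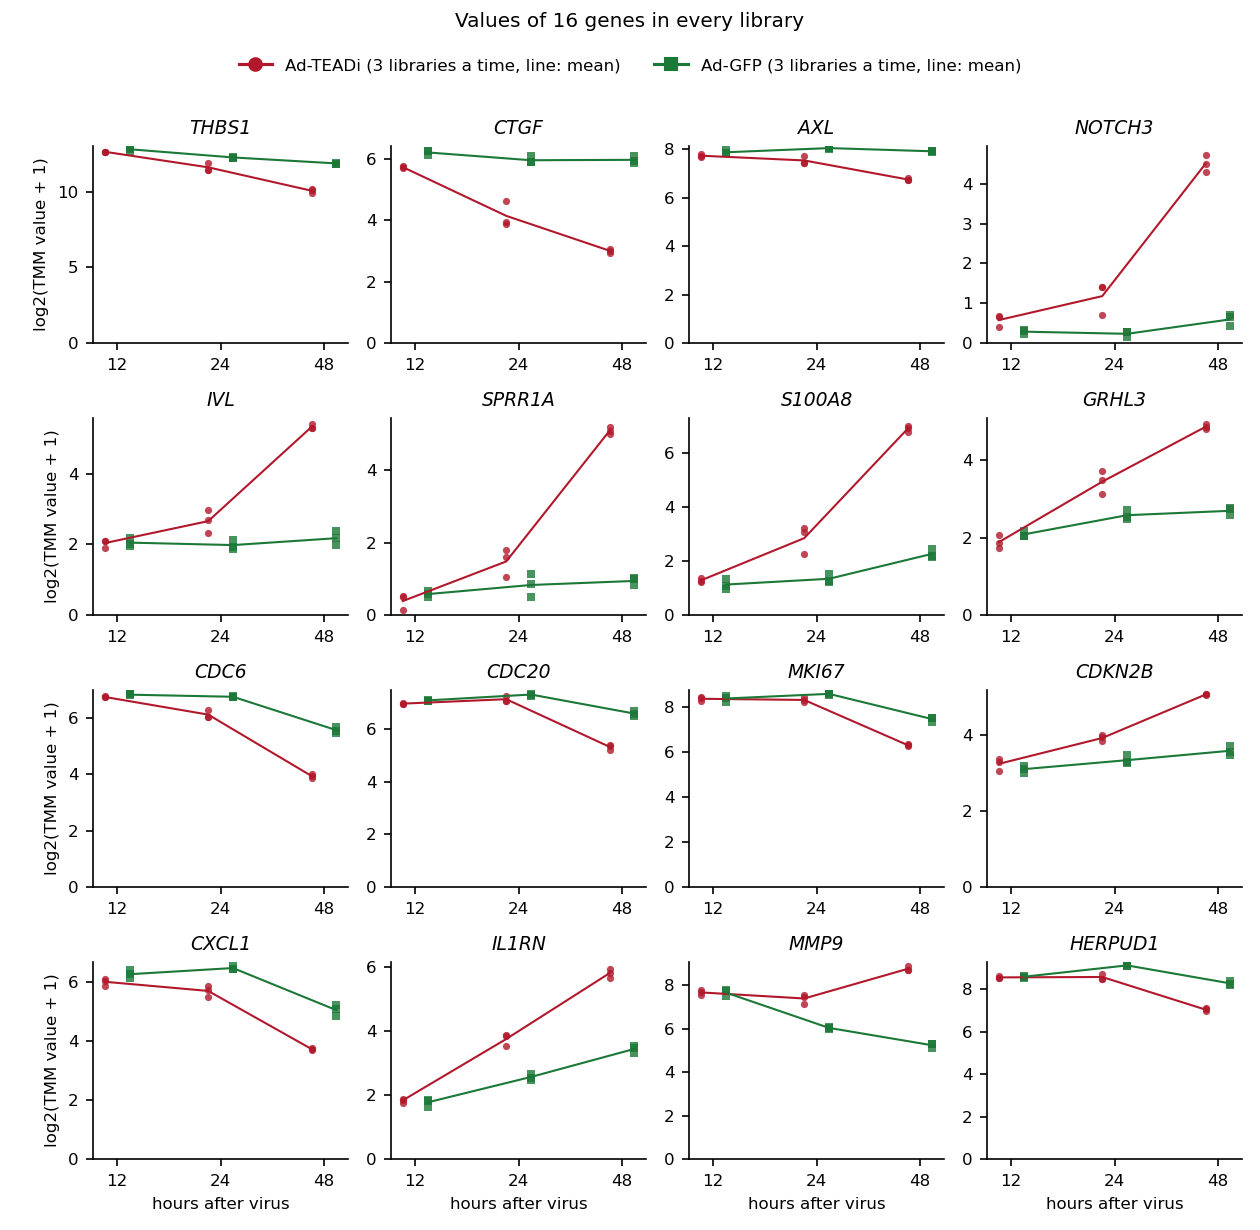
Log2(TMM value + 1) of 16 genes at 12, 24 and 48 h, with points for libraries and lines for the means of 3, for Ad-TEADi and Ad-GFP. THBS1, CTGF and AXL go down between 24 and 48 h in Ad-TEADi, NOTCH3, IVL, SPRR1A, S100A8 and GRHL3 go up in Ad-TEADi over the same interval, and CDC6, CDC20 and MKI67 go down with both viruses but further in Ad-TEADi.

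Most cornified envelope genes rose. Of 38 listed genes 25 were in the table and 18 were tested. Of the 18 tested members 16 rose and none fell, with a median change of 1.42. SPRR1A, a small proline-rich precursor of the envelope, reached 32.6, 31.1 and 35.3 CPM at 48 h, against 1.06, 2.01 and 2.48 CPM at 24 h, and rose by 3.61 ± 0.17 (adjusted p = 3.7e-19). Its neighbour SPRR1B reached 146, 129 and 144 CPM, against 9.73, 14.2 and 16.2 CPM (3.31 ± 0.16, adjusted p = 6.9e-12). Members of this family are close in sequence, so reads can be shared among them. IVL, involucrin, had 38.1, 37.8 and 41.1 CPM, against 3.95, 5.50 and 6.78 CPM (2.67 ± 0.13, adjusted p = 3.0e-18). In all of these genes every 48 h library lay several times above the highest 24 h library. SPRR1A, SPRR1B and IVL were among the largest rises, which were chosen with groups apart, so that separation adds no support.

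The enzyme and the late partners rose with the precursors. TGM1, the transglutaminase that crosslinks the envelope, had 25.7, 21.7 and 24.2 CPM at 48 h, against 2.51, 2.99 and 3.56 CPM at 24 h (2.63 ± 0.13, adjusted p = 2.1e-18). CNFN, cornifelin, had 8.4, 6.10 and 8.07 CPM, against 0.675, 0.736 and 0.779 CPM (2.29 ± 0.15), and SPRR2A rose by 1.71 ± 0.11. The other rises ran between 0.64 for SCEL and 2.09 for SERPINB3. The AP-1 motif TGANTCA was found before 7 of 11 matched envelope genes (63.6%), against 6.6% of all promoters and 4.01% of tested genes, and it was before 8.42% of the promoters of all rises.

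Many of these genes lie together in the genome. In the epidermal differentiation complex of chromosome 1 (hg19, chr1:151955391-153606569, bounded by the first and last S100A gene listed), 13 of 21 tested genes rose, none fell and the median change was 1.06. In the desmosomal cadherin cluster (hg19, chr18:28569974-29128972) 4 of 5 rose, in the kallikrein cluster (hg19, chr19:51322404-51531296) 3 of 4 rose, and in the SERPINB cluster (hg19, chr18:61143994-61672279) 3 of 7 rose and 1 fell. These regions were chosen with the gene lists known and share many of their members.

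Most spinous layer genes and some junction genes rose as well. Of 14 spinous genes 9 rose and none fell (median 0.72), and of 22 desmosome and tight junction genes 9 rose and 1 fell (median 0.18). SBSN, suprabasin, had 12.5, 11.3 and 13.9 CPM at 48 h, against 0.241, 0.883 and 0.813 CPM at 24 h (3.06 ± 0.16, adjusted p = 1.7e-17). DSG1, the desmoglein of the upper epidermis, had 5.15, 5.53 and 6.12 CPM, against 0.386, 0.393 and 0.542 CPM (2.20 ± 0.14, adjusted p = 3.8e-15), so that it was near the detection limit in the earlier libraries and clear in all later ones. KRTDAP, a keratinocyte differentiation-associated peptide, rose by 1.44 ± 0.16 but was not called with a pseudocount of 5 (0.49).

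Other desmosomal genes rose by smaller amounts. DSG3 had 607, 639 and 651 CPM at 48 h, against 306, 356 and 325 CPM at 24 h (0.94 ± 0.05). DSC2, a desmocollin, had 122, 127 and 133 CPM, against 48.6, 55.5 and 51.2 CPM (1.28 ± 0.06), and the plaque genes PKP1 and DSP rose by 0.84 ± 0.05 and 0.63 ± 0.05. PERP, a desmosomal membrane protein, rose by 0.75 and CLDN1, a tight junction claudin, by 1.19, whereas TJP1, which encodes the scaffold ZO-1, was the list's only fall (−0.73). Of the connexins, which form gap junctions, GJB2 (1198, 1185 and 1198 CPM, against 504, 654 and 616 CPM) and GJB6 rose by 1.02 and 1.48, and GJA1, GJA5, GJB5 and GJC1 changed by 0.38, −0.11, 0.36 and −0.28 without passing.

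Barrier lipid and desquamation genes followed in part. Of 17 lipid barrier genes 6 rose (median 0.42), among them ABCA12, the lipid transporter of lamellar granules, with 64.7, 68.4 and 73.3 CPM at 48 h, against 19.4, 27.7 and 22.4 CPM at 24 h (1.54 ± 0.11). SULT2B1, a cholesterol sulfotransferase, had 9.17, 8.31 and 8.62 CPM, against 0.771, 0.981 and 0.847 CPM (2.38 ± 0.13), and ALOX15B, a lipoxygenase, rose by 2.68 ± 0.10. ALOX15B also rose in Ad-GFP (1.72), and the difference between the viruses was 0.96. CERS4 and SPTLC3, both enzymes of ceramide synthesis, rose by 1.09 and 0.96. Of 16 desquamation proteases and inhibitors 8 rose, with the kallikrein KLK10 at 1.34, the membrane protease PRSS8 at 0.91 and the lysosomal protease CTSD at 0.77, and the serpin SERPINB8 fell (−0.64). SERPINB5, maspin, changed by 0.52 with 722, 766 and 792 CPM, against 494, 554 and 536 CPM, apart but under 1.5-fold.

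Several transcription factors of the upper epidermis rose. Of 27 differentiation factors 9 rose and none fell (median 0.49). GRHL3, a grainyhead-like factor of barrier formation, had 28.2, 27.0 and 29.6 CPM at 48 h, against 7.76, 12.3 and 10.2 CPM at 24 h (1.42 ± 0.12, adjusted p = 5.2e-12), and its relative GRHL1 rose by 1.42 ± 0.16. MAF, a large bZIP factor, had 25.2, 25.2 and 26.1 CPM, against 4.82, 7.07 and 4.81 CPM (2.03 ± 0.15). OVOL1, a zinc finger factor, rose by 1.80 ± 0.16, and 27.3% of its exon bases are shared with a transcript of the other strand. KLF4 and TP63, both named after their values were seen, changed by 0.29 ± 0.06 and 0.05 ± 0.04. The KLF motif GGGNGTGG was found before 4 of 16 matched factors (25%), against 15.3% of all promoters and 18.8% of tested genes.

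In the Notch pathway the receptor NOTCH3 had the largest change. It had 25.3, 18.7 and 21.5 CPM at 48 h, against 0.626, 1.67 and 1.66 CPM at 24 h, and rose by 3.33 ± 0.16 (adjusted p = 1.5e-18). Of 22 tested members 2 rose, 1 fell and the median was −0.05. HES2, a repressor of the HES family, rose by 0.80 ± 0.07, and RBPJ, the DNA-binding partner of activated Notch, fell to 23.9, 27.6 and 24.8 CPM, against 49.3, 43.4 and 38.1 CPM (−0.75 ± 0.08). JAG1, a ligand, and RFNG, a fringe glycosyltransferase, changed by −0.41 and 0.50, both under 1.5-fold.

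Antimicrobial and alarm genes rose, and S100A8 made the largest rise of the genes named, those flagged for uneven values left aside. Of 17 tested members 13 rose and 1 fell (median 1.05). S100A8 had 126, 107 and 121 CPM at 48 h, against 3.76, 7.31 and 8.33 CPM at 24 h (4.05 ± 0.17, adjusted p = 3.9e-16), and its partner in calprotectin, S100A9, had 214, 185 and 203 CPM, against 12.5, 23.1 and 22.7 CPM (3.35 ± 0.19, adjusted p = 1.5e-09). In both, 24 h replicate 1 was the lowest library. IL36RN, the antagonist of the interleukin-36 receptor, had 7.42, 6.19 and 8.07 CPM, against 0.241, 0.245 and 0.237 CPM (2.72 ± 0.14). KRT6B and KRT17, keratins induced in wounds, rose by 0.64 and 1.27, and share sequence with related keratins and pseudogenes. HBEGF, an EGFR ligand, was the fall (−0.78).

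Genes of the basal layer did not fall as a group. Of 23 tested members 8 rose and none fell, with a median of 0.37. With the control virus 6 of the 23 rose and none fell, with a median of 0.40. The test of the difference between the viruses, given below, called 1 gene higher and 1 lower (median 0.08). KRT14, a basal keratin, had 10396, 9618 and 9884 CPM at 48 h, against 4970, 5432 and 5352 CPM at 24 h (0.92 ± 0.04). Its partner KRT5 had 21927, 20447 and 20859 CPM, against 13813, 14520 and 14162 CPM, and its change of 0.57 ± 0.03 was just under the limit, passing without 24 h or 48 h replicate 2 (0.59 each) or at the same median (0.61). COL17A1 and LAMA5, a hemidesmosomal collagen and a laminin chain, rose by 0.67 ± 0.03 and 0.77 ± 0.05.

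**Figure D3:**
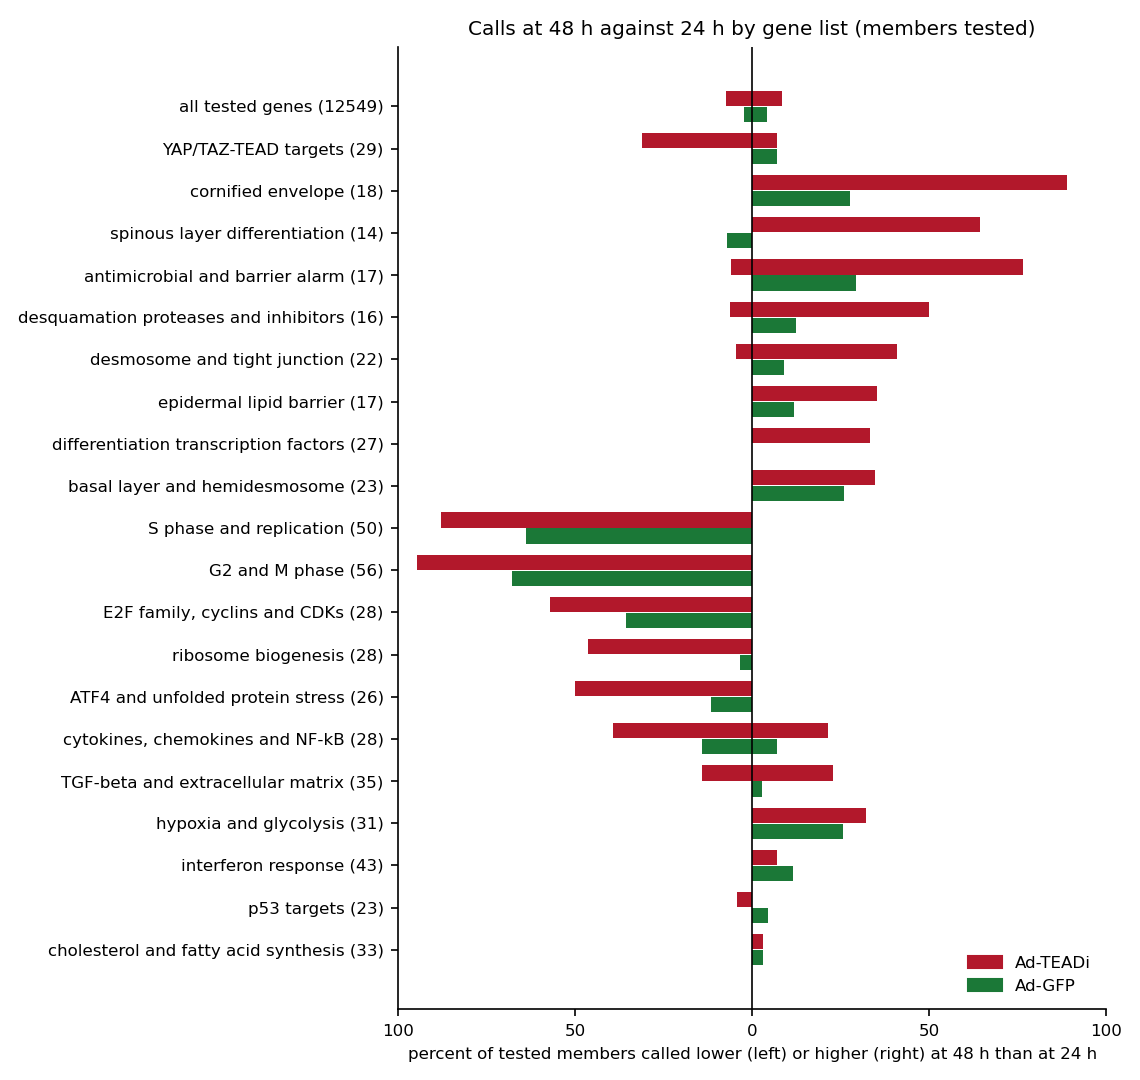
Percent of tested members that fell (left) and rose (right) between 48 and 24 h in 20 gene lists and over all tested genes, with Ad-TEADi above Ad-GFP in each pair. For Ad-TEADi the bars of the G2 and M phase and S phase lists reach far left and that of the cornified envelope far right, against 7.42% fallen and 8.53% risen over all genes.

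Nearly every gene of DNA replication and mitosis fell. Of 50 S phase genes 44 fell and none rose (median −1.26), and of 56 G2 and M phase genes 53 fell and none rose (median −1.33). The exceptions in G2 and M phase were CDC25B (0.28), BUB3 (−0.43) and KIFC1 (0.49), the last a gene flagged for uneven values. CDC6, which loads the replicative helicase, had 14.6, 13.7 and 15 CPM at 48 h, against 77.6, 65.4 and 64.5 CPM at 24 h, the largest fall of all genes named (−2.18 ± 0.06, adjusted p = 1.5e-24). MCM6, a subunit of that helicase, had 16, 16.1 and 15.4 CPM, against 52.9, 51.2 and 46.1 CPM (−1.60 ± 0.06), and MCM5 and MCM10 fell by 1.55 and 1.71. RRM2, which makes deoxynucleotides, fell by 1.88 ± 0.06. CLSPN, a replication checkpoint adaptor, fell to 5.41, 6.19 and 5.73 CPM, against 25.2, 20.3 and 21.4 CPM (−1.78 ± 0.08).

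Mitotic genes fell as well. CDC20, an activator of the anaphase-promoting complex, had 39.4, 41.3 and 36 CPM at 48 h, against 151, 132 and 133 CPM at 24 h (−1.81 ± 0.06, adjusted p = 1.1e-23). PLK1, the mitotic kinase named because its promoter is shown, had 26.4, 23.3 and 21.8 CPM, against 84.9, 72.8 and 73.5 CPM (−1.66 ± 0.06, adjusted p = 2.3e-21). MKI67, the proliferation marker Ki-67, had 77.9, 79.9 and 76.1 CPM, against 341, 311 and 297 CPM (−2.00 ± 0.07, adjusted p = 6.0e-17). No 48 h library of these genes came within reach of a 24 h library. CDC20 and MKI67 were among the largest falls, which were chosen with groups apart, so for them the separation adds no support. The cyclin CCNB1, the checkpoint kinase BUB1, the kinesin KIF20A, the scaffold ANLN and the spindle factor TPX2 fell by 1.39, 1.54, 1.77, 1.59 and 1.49, with standard errors of 0.05 each.

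Many factors known to drive these genes fell too. Of 28 E2F factors, cyclins and cyclin-dependent kinases 16 fell and none rose (median −0.63). E2F1, also named for its promoter, had 3.40, 3.14 and 2.73 CPM at 48 h, against 14.5, 8.83 and 10.4 CPM at 24 h (−1.56 ± 0.12, adjusted p = 2.8e-12), with 24 h replicate 1 the highest. MYBL2 and FOXM1, transcription factors of G2 and M phase genes, had 32.3, 29.8 and 29.8 CPM, against 113, 106 and 105 CPM (−1.79 ± 0.05), and 37.5, 34.0 and 35.4 CPM, against 125, 119 and 111 CPM (−1.70 ± 0.06). The repressor E2F7 fell by 1.08 ± 0.06 and the cyclin CCNA2 by 1.53 ± 0.06.

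The motifs searched were unevenly spread over these lists. An E2F motif lay before 13 of 42 matched S phase genes (31%), against 2.79% of all promoters and 4.58% of tested genes. A CHR motif lay before 26 of 48 matched G2 and M phase genes (54.2%), against 14.6% and 9.33%, and both a CHR and a CCAAT box lay before 24 of them (50%), against 5.24% and 3.8%. Over all falls both motifs were found before 11.5% of promoters, and over all rises before 1.63%.

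The CDK inhibitors did not rise together. Of 7 tested, CDKN2B, which inhibits CDK4 and CDK6, rose with 32.6, 32.1 and 32.8 CPM at 48 h, against 14.4, 13.3 and 14.9 CPM at 24 h (1.14 ± 0.09, adjusted p = 1.3e-12). CDKN2C and CDKN3 fell by 0.88 ± 0.14 and 1.37 ± 0.08, the first of these a low gene that was not called with a pseudocount of 5 (−0.38) and that shares 20.4% of its exon bases with a transcript of the other strand. CDKN1A (p21) measured 362, 334 and 333 CPM, against 349, 342 and 345 CPM (−0.01 ± 0.04), and CDKN1B, CDKN2A and CDKN2D changed by 0.12, 0.12 and 0.23 without passing. Of 23 p53 targets none rose and 1 fell, with a median of 0.02, whereas 1 rose and none fell with the libraries scaled to the same median. The rise there was TP53INP1 (0.61), a p53-induced nuclear protein that changed by 0.57 on the scale used here and also passed with a pseudocount of 0.1 and in 3 of the fits that left out 1 library. The fall, AEN (−0.59), ended when any of 24 h replicates 1 and 2 or 48 h replicate 2 was left out (−0.56, −0.58 and −0.54).

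Genes for making ribosomes and for folding secreted proteins fell in part. Of 28 ribosome biogenesis genes 13 fell and none rose (median −0.58), led by the nucleolar proteins NCL, with 637, 670 and 673 CPM at 48 h, against 1272, 1266 and 1181 CPM at 24 h (−0.91 ± 0.04), and UTP20 (−1.11 ± 0.06). NPM1, NOP58 and NOLC1, also nucleolar, fell by 0.73, 0.78 and 0.66. Of 19 aminoacyl-tRNA synthetases FARSB alone fell (−0.62), and EPRS, at −0.58 with its libraries apart, lay at the limit and passed without 24 h replicate 3, 48 h replicate 2 or 48 h replicate 3. In the MYC network of 11 genes the antagonists MXD4 (1.21) and MXI1 (1.0) rose and none fell. With the control virus 2 of these 11 genes rose and none fell.

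Of 26 ATF4 and unfolded protein genes 13 fell and none rose (median −0.52). HERPUD1, of endoplasmic reticulum degradation, had 133, 136 and 123 CPM at 48 h, against 426, 360 and 359 CPM at 24 h (−1.54 ± 0.06, adjusted p = 7.4e-20). HSPA5, the chaperone BiP, named after its values were seen, had 2264, 2400 and 2238 CPM, against 5995, 5487 and 5376 CPM (−1.29 ± 0.06). DDIT3, the stress factor CHOP, fell by 1.11 ± 0.08, and shares exon bases with other transcripts. The co-chaperone DNAJC3 and the amino acid transporter SLC7A5 fell by 0.85 and 0.76, and the disulfide isomerase PDIA4 fell by 0.62, a call lost when libraries had the same median (−0.58).

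Cytokine genes moved both ways. Of 28 cytokine, chemokine and NF-kB genes 6 rose and 11 fell (median −0.41). CXCL1, a neutrophil chemokine, had 12.0, 12.8 and 12.2 CPM at 48 h, against 57.9, 44.6 and 52.5 CPM at 24 h (−1.97 ± 0.09, adjusted p = 1.5e-13), and IL8 had 3.97, 4.07 and 3.95 CPM, against 14.1, 14.6 and 15.3 CPM (−1.65 ± 0.10). CXCL1 also fell in Ad-GFP (−1.43), and the difference between the viruses (−0.54) lay under the 1.5-fold limit. IL1A and the colony-stimulating factor CSF3 fell by 0.83 and 0.99, and NFKB1, an NF-kB subunit, fell by 0.70. IL1RN, the interleukin-1 receptor antagonist, rose with 55.8, 49.6 and 60.3 CPM, against 10.5, 13.5 and 13.8 CPM (2.06 ± 0.11, adjusted p = 1.4e-17). All 3 later libraries of IL1RN stood several times above the earlier ones.

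Some ligands of the EGFR family fell. EREG (160, 178 and 166 CPM, against 287, 321 and 286 CPM), NRG1 and HBEGF fell by 0.82, 0.84 and 0.78, and AREG changed by −0.54, under the limit. Their list of 26, which also holds ERK feedback genes, had 3 rises, 3 falls and a median of 0.03. Of all tested genes 8.53% rose and 7.42% fell. Of 9 AP-1 factors FOS rose (26.5, 25.4 and 26.4 CPM, against 10.8, 14.7 and 13.8 CPM, 0.95 ± 0.12) and FOSL1 fell (72.6, 62.5 and 63.2 CPM, against 149, 143 and 135 CPM, −1.10 ± 0.08). The others, FOSL2 (0.45), JUN (0.52), JUNB (0.24), JUND (0.41), ATF3 (−0.16), MAFF (0.08) and BATF2 (−0.38), did not pass, and BATF2 passed without 24 h replicate 3 (−0.60).

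Matrix genes moved both ways. Of 35 TGF-beta and matrix genes 8 rose and 5 fell (median 0.11), and the split was 4 rises and 6 falls with TPM values rescaled to a total of 1000000. TGFBI, COL5A1, COL16A1 and COL1A1, a matrix adhesion protein and fibrillar or associated collagens, rose by 0.82, 0.82, 0.73 and 0.75, while COL8A1, a short-chain collagen, fell by 0.98. Of 13 metalloproteases and inhibitors MMP10 rose with 92.0, 99.1 and 89.2 CPM at 48 h, against 20.2, 31.4 and 31.4 CPM at 24 h (1.75 ± 0.14), and MMP9 with 467, 414 and 409 CPM, against 141, 185 and 177 CPM (1.36 ± 0.11, adjusted p = 7.0e-08). TIMP2, an inhibitor, rose by 0.70, and the ADAMTS proteases ADAMTS6 and ADAMTS15 fell by 0.73 and 1.08, the last at under 2 CPM. ADAMTS15 was not called with a pseudocount of 5 (−0.36), and at such low values the filter may have set its direction.

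Some of the largest changes lay outside the lists. GPNMB, a glycoprotein of melanosomes and lysosomes, had 21.9, 19.4 and 22.6 CPM at 48 h, against 1.40, 1.23 and 1.39 CPM at 24 h (3.25 ± 0.12), and LGALS7B, a galectin of stratified epithelia with a near-identical copy, rose by 3.12 ± 0.11. LGALS7B also rose in Ad-GFP (1.95), and the difference between the viruses was 1.17. SPON2, a secreted matrix protein, rose by 2.63 ± 0.15. DCN, decorin, a small proteoglycan kept on the fibroblast marker list, had 7.83, 6.90 and 10.3 CPM, against 0.145, 0.393 and 0.305 CPM (2.85 ± 0.15). Among the other tested fibroblast markers COL1A1 rose, THY1 fell (−0.75), FAP and VIM changed by −0.05 and −0.28, and the marker sum above was lower at 48 h. IFI30, a lysosomal thiol reductase, rose by 2.70 ± 0.17 with 42.5% of its exon bases shared with a readthrough gene.

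Among falls outside the lists, CDH2, N-cadherin, had 1.55, 1.77 and 1.72 CPM at 48 h, against 11.4, 9.37 and 9.65 CPM at 24 h (−2.05 ± 0.10, adjusted p = 7.0e-19). CDH2 also fell in Ad-GFP (−1.44), and its Ad-TEADi fall was not called on rescaled TPM values (−0.45). PTX3, a secreted pentraxin, had 5.62, 5.17 and 3.67 CPM, against 22.2, 17 and 17.4 CPM (−1.78 ± 0.11). The protease FAM111B, the spindle protein SKA3 and the formin DIAPH3 fell by 1.92, 1.77 and 1.72. SLC43A3, a membrane transporter, fell by 1.75, with 29.9% of its exon bases shared with an overlapping gene. PTX3, FAM111B, SKA3, DIAPH3 and SLC43A3 also fell in Ad-GFP, by 0.64, 0.99, 1.01, 0.83 and 0.82. Their differences between the viruses (−1.14, −0.92, −0.76, −0.89 and −0.93) were called lower.

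Hypoxia and glycolysis genes rose in part, 10 of 31 with none lower (median 0.39). With the control virus 8 of the 31 rose and none fell (median 0.26). The test of the difference between the viruses, given below, called 4 higher and none lower (median 0.13). CA9, a carbonic anhydrase, had 9.74, 8.75 and 8.34 CPM at 48 h, against 0.867, 1.28 and 1.08 CPM at 24 h (2.26 ± 0.14), and the glucose transporters SLC2A1 and SLC2A3 rose by 1.07 and 1.23. NDRG1 and ADM rose by 1.5 and 1.09, and GAPDH changed by 0.14 ± 0.03. Of 29 lysosomal genes 4 rose, among them GAA, the acid glucosidase (1.66 ± 0.09), and PSAP, the saposin precursor (0.66). In oxidative defence, with 3 rises and 3 falls of 18, HMOX1, AKR1C2 and AKR1B10 rose by 1.0, 1.67 and 1.64 while TXNRD1, a thioredoxin reductase, fell by 1.10 and GCLM by 0.62, a call lost without 24 h replicate 2 (−0.56).

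Other lists held few calls. Of 43 interferon response genes IFI27, IFI6 and BST2 rose, with a median of 0.05, and in each of them 24 h replicate 1 stood well above its replicates. Without that library 6 rose, with a median of 0.15. IFI6 had 228, 244 and 200 CPM at 48 h, against 198, 102 and 122 CPM at 24 h (0.72 ± 0.20, adjusted p = 0.00805), and was not called without 24 h replicate 2 (0.52) or with the 6 libraries fitted alone (adjusted p = 0.105). BST2 (1.17 ± 0.24, adjusted p = 0.00108) was likewise not called in that fit (adjusted p = 0.0525), and LGALS3BP, at 0.47, passed without 24 h replicate 1 (0.59). Of 29 actin and SRF genes CNN2 and AKAP12 fell (−0.67 and −0.79), of 33 cholesterol and fatty acid synthesis genes ACSS2 rose (0.61), and none of 13 mitochondrial transcripts passed by limma (median 0.17), with 3 higher and 0 lower at an unadjusted p under 0.05. Of 14 housekeeping genes B2M rose (0.61), a call lost without 48 h replicate 2 (0.58), and ACTB, POLR2A and RPL13A changed by −0.35, −0.36 and 0.40.

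Fewer genes changed with the control virus. Between 48 and 24 h in Ad-GFP 813 genes (6.48%) passed, with 519 higher (4.14%) and 294 lower (2.34%), which became 50 and 135 on the deposited TPM values and 170 and 564 on rescaled TPM values, where the median over all genes lay at −0.13 instead of 0.01. Changes of at least 2-fold numbered 669 in Ad-TEADi and 114 in Ad-GFP. Of the 1070 rises in Ad-TEADi, 339 (31.7%) also rose in Ad-GFP, and of the 931 falls 261 (28%) also fell. Seen from Ad-GFP, these were 65.3% of its rises and 88.8% of its falls. Across the 12549 genes the changes had a Pearson correlation of 0.62, given as a description over genes that are not independent.

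A test of the difference between the changes, Ad-TEADi minus Ad-GFP, called 785 genes (6.26%), 391 with a higher change in Ad-TEADi (3.12%) and 394 with a lower one (3.14%). On the deposited TPM values these counts were 92 and 45, and on rescaled TPM values 281 and 165. Of the 1070 rises 346 (32.3%) and of the 931 falls 299 (32.1%) were greater than in Ad-GFP by this test. Cornified envelope genes made 13 higher differences and 1 lower (SPRR2D) of 18, spinous genes 9 of 14 and differentiation factors 7 of 27. IVL measured 2.93, 3.50 and 4.18 CPM at 48 h and 2.81, 2.68 and 3.37 CPM at 24 h in Ad-GFP, so that it changed by 0.20 there and by 2.67 in Ad-TEADi (difference 2.47, adjusted p = 9.0e-12). NOTCH3, SPRR1A and S100A8 differed by 2.96, 3.50 and 3.12. S100A8, S100A9 and SPRR1B also rose in Ad-GFP, by 0.93, 0.97 and 0.89.

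Proliferation genes fell with both viruses, and how many fell further with TEADi depended on the scale. Of 50 S phase genes 32 fell in Ad-GFP (median −0.65) and 28 fell further in Ad-TEADi by the test of the difference, and of 56 G2 and M phase genes 38 fell in Ad-GFP (median −0.65) and 41 fell further. On rescaled TPM values 15 S phase and 21 G2 and M phase genes fell further, and on the deposited TPM values 3 and 6. CDC6 changed by −2.18 in Ad-TEADi and −1.19 in Ad-GFP (difference −1.0, adjusted p = 9.7e-11). CDC20 changed by −1.81 and −0.72 (difference −1.08, adjusted p = 3.0e-12). Ribosome biogenesis genes fell in 1 case in Ad-GFP and made 1 difference, whereas the ATF4 and unfolded protein list fell in 3 cases and made 12 lower differences, among them HERPUD1 (−0.69) and SLC7A5 (−0.85). On rescaled TPM values 7 ribosome biogenesis genes fell in Ad-GFP (median −0.41) and none differed, and the ATF4 and unfolded protein list made 9 lower differences, against 5 on the deposited TPM values.

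**Figure D4:**
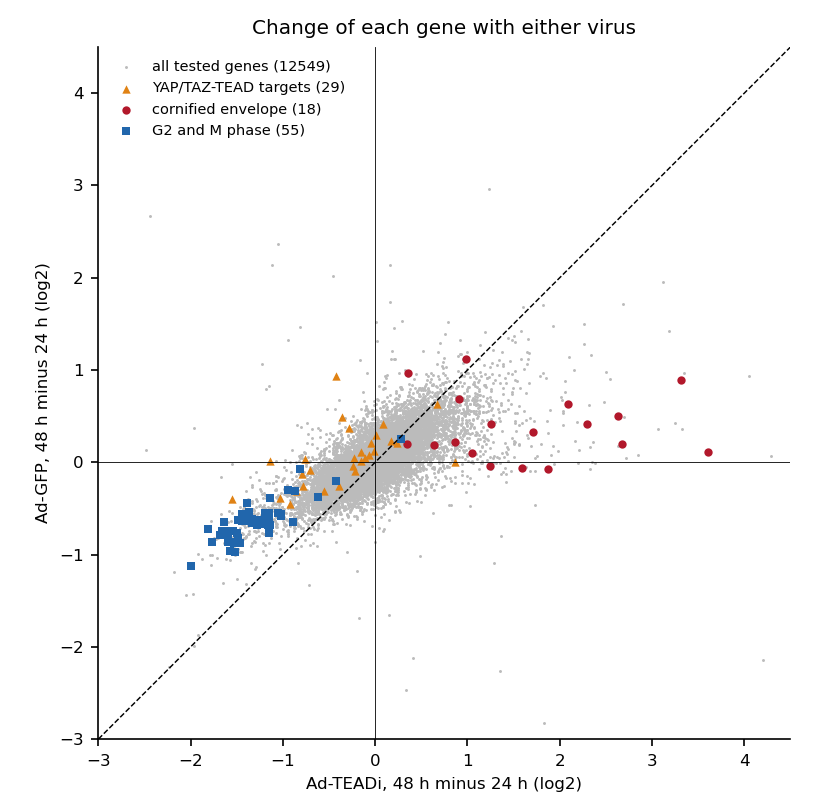
Change between 48 and 24 h in Ad-TEADi (horizontal) and in Ad-GFP (vertical), as log2 after a pseudocount of 1, for 12549 genes in grey with YAP/TAZ-TEAD targets, cornified envelope and G2 and M phase genes in colour and a dashed line where both changes are equal. Mitotic genes, except CDC25B, lie below zero on both axes and above the dashed line, cornified envelope genes spread to the right, and 9 genes, KIFC1 among them, lie outside the axes.

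TEAD targets also had lower differences. The target list had 2 rises and no fall in Ad-GFP (median 0.04), and 9 of its 29 genes had a lower change in Ad-TEADi and 1 a higher one, against 6 lower and 1 higher without 24 h Ad-TEADi replicate 1. THBS1 changed by −0.40 in Ad-GFP (difference −1.15, adjusted p = 7.2e-05) and CTGF by 0.01 (difference −1.15, adjusted p = 0.00167). TAGLN, an actin-binding protein, had 16.1, 16.8 and 13 CPM at 48 h, against 23, 18.1 and 21.0 CPM at 24 h in Ad-TEADi, and 51.4, 61.6 and 59.2 CPM, against 29.5, 27.3 and 31.3 CPM in Ad-GFP, where it rose by 0.94 (difference −1.36).

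Other genes rose in control cells without a matching change in inhibited cells. Of 519 rises in Ad-GFP, 27 (5.2%) had a lower change in Ad-TEADi by the test, against 3.14% of all tested genes. The Ad-GFP change enters both the choice of these genes and the difference, so the higher share adds no support. NGFR, the low-affinity neurotrophin receptor, had 7.18, 7.0 and 6.58 CPM at 48 h, against 1.81, 2.11 and 1.71 CPM at 24 h in Ad-GFP, and changed by 0.20 in Ad-TEADi (difference −1.26). SLIT3, a secreted guidance protein, had 12.4, 12.9 and 13.7 CPM, against 4.51, 4.27 and 5.25 CPM in Ad-GFP, and changed by 0.02 in Ad-TEADi (difference −1.28). ALPL and ANO1, an alkaline phosphatase and a chloride channel, fell by 1.55 and 1.67 in Ad-TEADi and changed by −0.02 and −0.16 in Ad-GFP. On rescaled TPM values the ALPL fall (−0.57) and the SLIT3 difference (−0.15) were not called.

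Calls in opposite directions were found for MMP9 and TNFAIP1. MMP9, the gelatinase, rose in Ad-TEADi as given above and fell in Ad-GFP with 38.6, 38.1 and 33.4 CPM at 48 h, against 62.6, 64.3 and 66.8 CPM at 24 h (−0.80, adjusted p = 3.2e-05), and the difference of 2.16 had an adjusted p of 1.9e-07. TNFAIP1 is a gene flagged for uneven values, whose 24 h Ad-TEADi libraries gave 108, 0.0491 and 0.0339 CPM, over 16-fold apart within a group, so no direction is read from it. Other genes went back toward their first level, chosen after their values were seen. TGFBI averaged 817, 401 and 710 CPM at 12, 24 and 48 h of Ad-TEADi, and IFI30 averaged 10.9, 0.838 and 10.9 CPM.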

How the data were processed

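N/TERT2G RNA was sequenced as 3 libraries for each of 6 groups, and the labels gave virus, hour and replicate number. The members compared and the gene lists were chosen with earlier results of these data known. Per the submitters' notes, reads were trimmed and aligned to hg19, with Partek 8.0.19.0819, Trimmomatic 0.36 and STAR 2.5.1 among the tools named, and the study kept genes with at least 8 reads. Whether counting used strand is not given. The authors deposited TMM normalized CPM values and TPM values for 15896 gene symbols. Columns of the authors' own comparisons between viruses (p-values, false discovery rates, ratios and fold changes) were not used.

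The lowest value of each library stands for 1 added read, so estimated reads were recovered by division. Between 73.3% and 76.3% of low values lay within 0.01 of a whole number, so no model of whole counts was fitted. R 4.3.3 and limma 3.58.1 were used to fit log2 of the value plus 1 (6 group means over 18 libraries, trend and robust options), with Benjamini-Hochberg adjustment over 12549 genes in each comparison, after the fit had been tested on simulated data. For the difference, the Ad-GFP change was subtracted from the Ad-TEADi change in the same fit. Genes elsewhere than chromosomes 1 to 22, X and MT were left out (476). The 51 tested genes flagged for uneven values stayed in but were not chosen among the largest changes. The flag rests on values alone, and gene copies were not examined.

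Genes were named by rule: the 15 largest rises and 15 largest falls with groups apart and a mean of at least 5, from every list the 5 members of lowest adjusted p at most, all members of the TEAD, CDK inhibitor, AP-1 and connexin lists, and the 10 largest differences in each direction with genes called in opposite directions. AMOTL2, EDN1, DLC1, IGFBP3, CTGF, CYR61, SCEL, SERPINB3, SPRR2D, TJP1, KLF4, TP63, CDC25B, BUB3, KIFC1, PLK1, E2F1 and HSPA5 fall outside that rule, and their values were known when they were named. A few genes that the rule takes in are not reported here. Promoters came from RefSeq (GRCh38.p14), matched by symbol or synonym for 9692 tested genes, and 250 bases before the start were searched on both strands with Python 3.11.15. Exon overlaps were read from the annotation given with the reference genome. Alternatives varied the pseudocount, filter, scale, variance model, thresholds, libraries fitted, a replicate block and each library left out. Deviations from the group means of same-numbered 48 and 24 h libraries correlated at 0.26, 0.10 and 0.15 in Ad-GFP. There 48 h replicate 2 also correlated with 24 h replicate 3 at 0.149. The labels give no source for a pairing, so the main fit paired no libraries and replicate number entered only as the block alternative. Rescaled TPM values and the removal of genes flagged for uneven values were chosen after seeing the data.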

Additional observations from a re-analysis of the deposited data

Results flagged for a closer look

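The change between 48 and 24 h differed between the viruses in 785 genes by the test of the difference in limma. The largest higher changes in Ad-TEADi than in Ad-GFP were those of SPRR1A (3.50), S100A8 (3.12), NOTCH3 (2.96), GPNMB (2.83), DCN (2.77), SBSN (2.70), IL36RN (2.67), IVL (2.47), SPON2 (2.44) and SPRR1B (2.42) on the log2 scale. These 10 genes were chosen among differences with an adjusted p under 0.05 whose changes did not overlap between the viruses. Their adjusted p and separation are therefore conditions of the choice and add no support.

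The largest lower changes were those of ALPL (−1.53), ANO1 (−1.50), TAGLN (−1.36), SLIT3 (−1.28), NGFR (−1.26), ALOX5AP (−1.24), C6orf223 (−1.23), BCYRN1 (−1.18), FLNC (−1.17) and THBS1 (−1.15). On rescaled TPM values the differences of ALPL, ANO1 and SLIT3 were not called (−0.46, −0.53 and −0.15). ALOX5AP, the 5-lipoxygenase activating protein, fell by 0.85 in Ad-TEADi and changed by 0.40 in Ad-GFP. FLNC, filamin C, fell by 0.74 in Ad-TEADi and changed by 0.43 in Ad-GFP, and C6orf223 changed by 0.29 and 1.53. BCYRN1 derives from a repeat with many copies, its difference had an adjusted p of 0.0416, and without 1 library it ran between 0.0547 and 0.0955 in the 9 cases that lost the call.

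MMP9 was called in opposite directions (difference 2.16), and so was TNFAIP1 (difference 11.38), a gene flagged for uneven values. The Ad-TEADi change of TNFAIP1 was not called when any of 24 h replicates 2 and 3 or any 48 h library was left out.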

How the results depend on the processing

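Of 240 values for named genes, 168 passed the thresholds and 156 kept their side of them under every alternative run. None reversed, and 16 changed sides when 1 library was left out. Over libraries left out in turn, the counts ran between 1903 and 2132 in Ad-TEADi (main count 2001), between 773 and 880 in Ad-GFP (813) and between 648 and 855 for the difference (785), where the lowest was without 24 h Ad-TEADi replicate 1. In the order Ad-TEADi, Ad-GFP and difference, a pseudocount of 5 gave 1156, 351 and 336 genes, a mean value of at least 10 gave 1191, 507 and 381, an adjusted p under 0.05 alone gave 7497, 6046 and 2775, and an adjusted p under 0.01 with 2-fold gave 636, 78 and 159. TPM values gave 554, 185 and 137 genes, and the listed TPM values sum to far less than 1000000, so that a pseudocount of 1 shrinks more changes. Rescaled to that total they gave 1620, 734 and 446, a setting chosen after seeing the data. The higher share of calls for the difference was 49.8%, against 67.2% with TPM values, 63% with rescaled TPM values, 34.6% with the mean filter, 37.5% at an adjusted p under 0.05 alone and 83% at 0.01 with 2-fold. Calls of 73 named values changed with TPM values, 30 with rescaled ones and 13 with a pseudocount of 5. On rescaled values the Ad-TEADi calls of GRHL1 (0.51), SPTLC3 (0.46), RBPJ (−0.49) and NRG1 (−0.45) were lost, among others. The cause was not tested for the other settings.

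With a replicate block the counts were 2005, 813 and 791, and no call of a named gene changed. Same-numbered Ad-TEADi libraries correlated at 0.04, 0.09 and 0.14 in their deviations, so their numbers were not read as pairs. Precision is limited by 3 libraries a group and, for low genes, by estimated reads.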
